A study of Rattus norvegicus with 30 samples.

Results

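The genes of the proteasome and of the immunoproteasome were described in the hearts of untreated Fischer 344 rats. The members were the gene names that start with Psma, Psmb, Psmc, Psmd, Psme, Psmf or Psmg in the tables the authors deposited for 8, 21 and 78 weeks. This rule uses names only, but earlier results of these data were known when it was set. There were 47 such names among the 33027 gene names that the arrays and tables hold, in 65, 66 and 65 rows of the 3 tables. The arrays carry 73 probes for them, and 46 genes passed the filter on dim probes. Psmb11, the catalytic subunit of the thymus, was above background on none of the arrays and was listed only at 21 weeks. Psmc3ip shares the prefix by name only, since its product works in meiotic recombination and is not a proteasome subunit.

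There were 5 females and 5 males at each age, kept in the same colony on the same diet, with no treatment in any group. RNA came from the whole heart of each rat and was hybridized to its own single-color Agilent array, so each group had 5 replicates. All cell types of the heart were pooled, so more cells of a type and more RNA per cell cannot be told apart. Per the study's methods, rats of different ages were handled in different batches, and the authors made no comparison between ages for that reason. Age and batch therefore cannot be told apart in any age difference given here. Both sexes of an age shared a batch.

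The proteasome degrades proteins tagged with ubiquitin. Its barrel-shaped 20S core has outer rings of alpha subunits (Psma genes) and inner rings of beta subunits (Psmb genes), of which Psmb5, Psmb6 and Psmb7 encode the cutting sites. The 19S cap of Psmc ATPases and Psmd subunits binds, unfolds and feeds the substrate. In leukocytes, and in other cells exposed to interferon-gamma, Psmb8, Psmb9 and Psmb10 take the places of Psmb5, Psmb6 and Psmb7, which changes the peptides made for display on class I molecules. Psme1 and Psme2 form PA28, an interferon-inducible ring that opens the core without ubiquitin. In heart muscle the system turns over contractile proteins and removes damaged ones.

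Since each value below is the signal of a single probe, the probes of 5 of the 6 exchanged beta subunits are shown, 5′ to 3′, with their place on build rn3 as the array files give it. The Psmb7 probe spans an intron, so its interval is longer than the 60 bases of the probe. The array files do not say in which exon a probe lies.
Psmb8, chr20:4788207-4788266 (-): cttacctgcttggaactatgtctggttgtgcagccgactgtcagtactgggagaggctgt
Psmb5, chr15:32705834-32705893 (-): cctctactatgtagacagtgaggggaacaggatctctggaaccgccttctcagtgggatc
Psmb9, chr20:4806568-4806627 (+): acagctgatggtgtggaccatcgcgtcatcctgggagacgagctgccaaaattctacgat
Psmb6, chr10:57384991-57385050 (+): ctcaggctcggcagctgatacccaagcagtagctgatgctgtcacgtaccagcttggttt
Psmb7, chr3:18309603-18329477 (-): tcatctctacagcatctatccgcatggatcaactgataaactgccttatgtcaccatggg

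Psmb8 and Psmb9 lie close together on chromosome 20, in the region of the class I and class II genes, on opposite strands. Psmb10 was read at chr19:35782592-35782651 (-), Psme1 at chr15:33730266-33730552 (+) and Psme2 at chr15:33739894-33740973 (-). A level is the log2 of the background-subtracted signal over the 75th percentile of all gene probes of that array, so that 0 is the signal at that percentile. Levels of different probes cannot be compared with each other. The 75th percentile itself ranged from 92.1 to 160 intensity units at 8 weeks, from 37.1 to 113 at 21 weeks and from 78.4 to 116 at 78 weeks. The 3 dimmest arrays, all under 70, were male replicates 2, 4 and 5 at 21 weeks. The spread between rats was largest among the males at 21 weeks. The median SD over the 46 members was 0.08 among females and 0.09 among males at 8 weeks, 0.12 and 0.28 at 21 weeks, and 0.13 and 0.15 at 78 weeks. A link between the brightness of the arrays and this spread was not tested. By the Y-linked genes Ddx3y and Eif2s3y, the 78-week arrays labeled female replicate 2 (-0.80 and 1.45) and male replicate 3 (-5.37 and -5.49) had values typical of the opposite sex. Their labels were kept, and calls at 78 weeks that were lost without these 2 discordant arrays are named. Females sat at array positions 2 or 4 and males at 1 or 3 on every slide, so position and sex cannot be told apart.

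The immune subunits had higher levels at 21 weeks than at 8 weeks in all 5 genes, and Psmb8 and Psmb9 were also higher at 78 weeks than at 8 weeks. At 21 weeks the largest differences from 8 weeks were those of Psmb9 (2.33-fold) and Psmb8 (2.16-fold), and at 78 weeks these 2 genes were 1.35-fold and 1.46-fold above 8 weeks. No immune subunit passed the test between the sexes at any age, and after normexp correction none passed between ages.

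Psmb8 encodes LMP7, which takes the place of Psmb5 at the chymotrypsin-like site. Psmb8 at 8 weeks measured 2.25, 2.61, 2.28, 2.40 and 2.40 in the females and 2.39, 2.36, 2.49, 2.68 and 2.27 in the males. Psmb8 at 21 weeks gave 3.38, 3.66, 3.15, 3.42 and 3.19 in the females and 3.30, 3.85, 3.52, 3.53 and 4.19 in the males. Psmb8 at 78 weeks had levels of 3.06, 3.11, 2.84, 1.50 and 3.05 in the females and 3.14, 2.91, 3.11, 3.80 and 3.01 in the males. Each rat at 21 weeks was above each rat at 8 weeks. At 78 weeks all rats but female replicate 4 were above every rat at 8 weeks, and that rat was the lowest of all 30. In the model over all 30 arrays (limma), Psmb8 differed by 1.11 ± 0.16 (SE) from 8 to 21 weeks (adjusted p = 1.59e-06), by -0.56 ± 0.16 (SE) from 21 to 78 weeks (adjusted p = 0.00339) and by 0.55 ± 0.16 (SE) from 8 to 78 weeks (adjusted p = 0.0136). Without female replicate 4 at 78 weeks, the last difference was 0.70 (limma, adjusted p = 2.19e-05). Without the 3 dimmest arrays the difference from 21 to 78 weeks did not pass (-0.42, limma, adjusted p = 0.0551). After another background correction, normexp with an offset of 50, that from 8 to 21 weeks was 0.66 (limma, adjusted p = 0.0759) and that from 8 to 78 weeks 0.17 (adjusted p = 0.630).

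Psmb9 encodes LMP2, which takes the place of Psmb6 at the caspase-like site. Psmb9 at 8 weeks had levels of 4.24, 4.60, 4.27, 4.34 and 4.38 in the females and 4.30, 4.26, 4.36, 4.49 and 4.04 in the males. Psmb9 at 21 weeks measured 5.32, 5.56, 5.09, 5.35 and 5.41 in the females and 5.26, 6.08, 5.46, 5.45 and 6.45 in the males. Psmb9 at 78 weeks gave 4.74, 4.86, 4.58, 3.53 and 4.94 in the females and 4.97, 4.73, 4.84, 5.60 and 4.79 in the males. Each rat at 21 weeks was above each rat at 8 weeks, and at 78 weeks 8 of the 10 rats were above every rat at 8 weeks. Female replicate 4 was again the lowest and male replicate 4 the highest rat of 78 weeks, and both were hybridized on the same slide. From 8 to 21 weeks the Psmb9 level differed by 1.22 ± 0.16 (SE) (limma, adjusted p = 3.02e-07), and from 21 to 78 weeks by -0.79 ± 0.16 (SE) (limma, adjusted p = 0.000106). From 8 to 78 weeks it differed by 0.44 ± 0.16 (SE) (limma, adjusted p = 0.0454), a call close to the threshold that was lost in 16 of the 30 fits that left out 1 rat each (differences of 0.36 to 0.56, adjusted p of 0.00147 to 0.0901) and without the 2 discordant arrays (0.41, adjusted p = 0.0866). After normexp correction Psmb9 differed by 0.73 from 8 to 21 weeks and by 0.02 from 8 to 78 weeks (limma, adjusted p = 0.109 and 0.972).

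Psmb10 encodes MECL-1, which takes the place of Psmb7 at the trypsin-like site. Psmb10 at 8 weeks gave 5.12, 5.38, 5.08, 5.23 and 5.17 in the females and 5.16, 5.14, 5.19, 5.28 and 5.10 in the males. Psmb10 at 21 weeks had levels of 5.68, 6.01, 5.46, 5.89 and 5.96 in the females and 5.69, 6.49, 5.87, 5.97 and 6.79 in the males. Psmb10 at 78 weeks measured 5.50, 5.35, 5.22, 4.37 and 5.35 in the females and 5.35, 5.37, 5.46, 5.49 and 5.16 in the males. All rats at 21 weeks were above all rats at 8 weeks, while the rats at 78 weeks overlapped those at 8 weeks and female replicate 4 was the lowest of all 30. Psmb10 differed by 0.81 ± 0.13 (SE) from 8 to 21 weeks (limma, adjusted p = 6.15e-06) and by -0.72 ± 0.13 (SE) from 21 to 78 weeks (limma, adjusted p = 2.19e-05). Its difference from 8 to 78 weeks was 0.08, with an interval of 2 SE from -0.17 to 0.34.

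Psme1 and Psme2 encode the alpha and beta subunits of PA28. Psme1 at 8 weeks measured 6.37, 6.02, 6.26, 6.23 and 6.47 in the females and 6.25, 6.24, 6.13, 6.39 and 6.40 in the males. Psme1 at 21 weeks gave 6.89, 7.11, 6.89, 6.97 and 7.12 in the females and 6.69, 7.52, 7.08, 6.98 and 7.71 in the males. Psme1 at 78 weeks had levels of 6.37, 6.30, 6.39, 6.54 and 6.49 in the females and 6.27, 6.24, 6.45, 6.84 and 6.21 in the males. All rats at 21 weeks were above those at 8 weeks, and the rats of 8 and 78 weeks overlapped. Psme2 at 8 weeks measured 4.41, 4.53, 4.30, 4.42 and 4.40 in the females and 4.39, 4.49, 4.41, 4.43 and 4.39 in the males. Psme2 at 21 weeks gave 4.76, 5.09, 4.60, 4.86 and 4.93 in the females and 4.65, 5.48, 5.05, 4.96 and 5.79 in the males. Psme2 at 78 weeks had levels of 4.56, 4.53, 4.39, 4.15 and 4.60 in the females and 4.59, 4.53, 4.55, 4.84 and 4.53 in the males. The Psme2 levels at 21 weeks were likewise all above those at 8 weeks, and female replicate 4 was the lowest rat of 78 weeks. From 8 to 21 weeks, Psme1 differed by 0.82 ± 0.10 (SE) and Psme2 by 0.61 ± 0.10 (SE) (limma, adjusted p = 1.68e-07 and 1.05e-05). From 21 to 78 weeks they differed by -0.70 ± 0.10 (SE) and -0.50 ± 0.10 (SE) (limma, adjusted p = 1.76e-06 and 0.000113). Over 8 to 78 weeks the differences were 0.13 (2 SE interval -0.08 to 0.33) and 0.11 (-0.09 to 0.31).

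**Figure D1:**
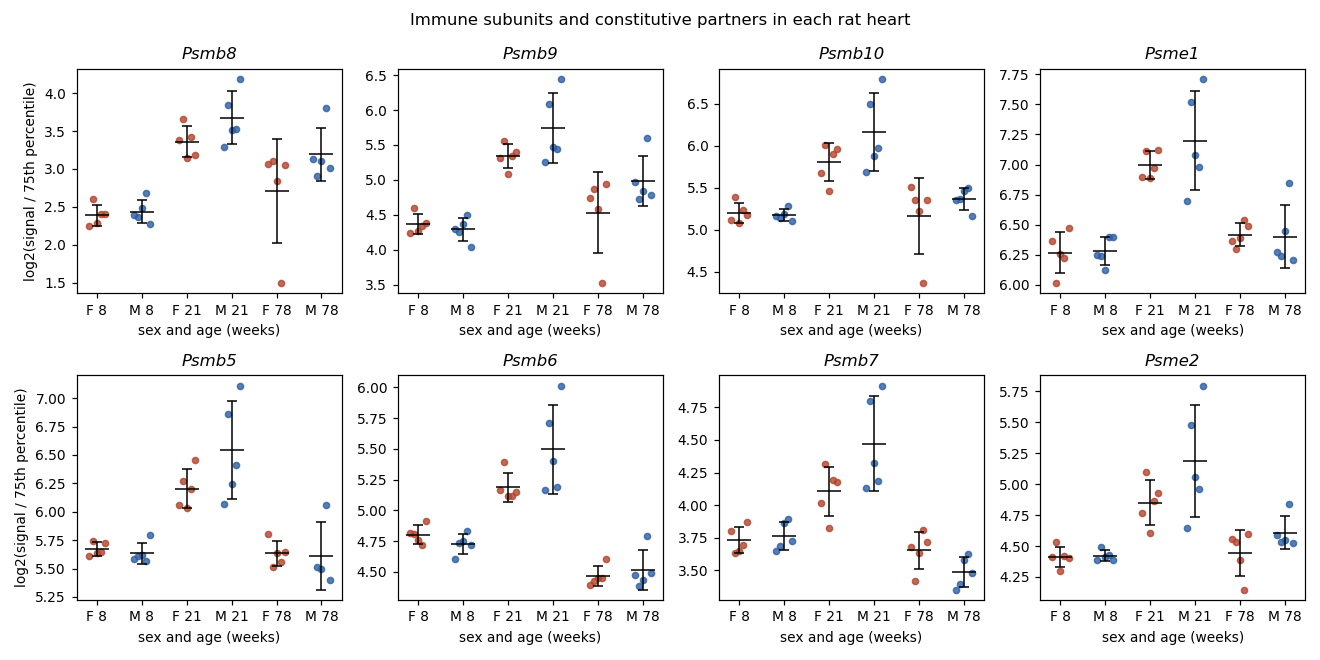
Level of the 5 immune subunits and of the 3 constitutive subunits they replace in each rat (log2 scale, 0 at the array's 75th percentile), by sex and age, with the mean and SD of each group. At 78 weeks 9 of the 10 rats in Psmb8 and 8 of the 10 in Psmb9 lie above every 8-week rat, with female replicate 4 far below (1.50 and 3.53).

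Psmb5, Psmb6 and Psmb7, the constitutive subunits of the same 3 sites, were also higher at 21 weeks than at 8 weeks, and at 78 weeks Psmb6 was lower than at 8 weeks. Psmb5 at 8 weeks measured 5.61, 5.74, 5.63, 5.65 and 5.72 in the females and 5.58, 5.61, 5.62, 5.56 and 5.79 in the males. Psmb5 at 21 weeks gave 6.06, 6.27, 6.03, 6.20 and 6.45 in the females and 6.07, 6.86, 6.25, 6.42 and 7.11 in the males. Psmb5 at 78 weeks had levels of 5.81, 5.52, 5.64, 5.55 and 5.65 in the females and 5.51, 5.49, 6.06 and 5.40 in the males, of whom replicate 1 was left out because the scanner software marked the spot as an outlier. The 21-week rats lay above all rats of 8 weeks, and the rats of 78 weeks lay on both sides of the 8-week range. Psmb6 at 8 weeks measured 4.82, 4.81, 4.76, 4.71 and 4.91 in the females and 4.60, 4.73, 4.75, 4.83 and 4.72 in the males. Psmb6 at 21 weeks gave 5.16, 5.39, 5.12, 5.11 and 5.15 in the females and 5.17, 5.71, 5.40, 5.19 and 6.01 in the males. Psmb6 at 78 weeks had levels of 4.39, 4.42, 4.45, 4.45 and 4.60 in the females and 4.48, 4.39, 4.43, 4.79 and 4.49 in the males. At 78 weeks 8 of the 10 rats were below every rat of 8 weeks in Psmb6, where 8 of the 10 were above in its immune counterpart Psmb9. Psmb7 at 8 weeks measured 3.80, 3.64, 3.65, 3.70 and 3.87 in the females and 3.65, 3.68, 3.87, 3.89 and 3.73 in the males. Psmb7 at 21 weeks gave 4.02, 4.32, 3.83, 4.19 and 4.18 in the females and 4.13, 4.80, 4.32, 4.18 and 4.91 in the males. Psmb7 at 78 weeks had levels of 3.68, 3.42, 3.64, 3.81 and 3.72 in the females and 3.35, 3.40, 3.58, 3.62 and 3.48 in the males. Psmb7 overlapped between 8 and 21 weeks at 1 female of 21 weeks (3.83) and was lowest on average at 78 weeks. The differences from 8 to 21 weeks were 0.72 ± 0.10 (SE) for Psmb5, 0.58 ± 0.08 (SE) for Psmb6 and 0.54 ± 0.09 (SE) for Psmb7 (limma, adjusted p = 1.64e-06, 1.34e-06 and 8.67e-06). From 8 to 78 weeks they were -0.03 ± 0.11 (SE), -0.28 ± 0.08 (SE) and -0.18 ± 0.09 (SE), of which Psmb6 passed (limma, adjusted p = 0.0145) and Psmb5 and Psmb7 did not (adjusted p = 0.89 and 0.151). A second Psmb6 row of the authors' tables, matched to no probe, had means of 0.44 (females) and 0.37 (males) at 8 weeks. At 78 weeks the means of that row were 0.45 and 0.35.

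The level of each immune subunit minus that of its constitutive partner in the same rat does not depend on the scale of the array. It still depends on how the background was subtracted, and its values after normexp correction are not given here. Only changes of the difference within a pair were read between groups, since the probes of a pair are not on the same scale. Relative to its partner, Psmb9 was higher at 21 and at 78 weeks than at 8 weeks, Psmb8 likewise, and Psmb10 was higher at 21 weeks.

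Psmb9 minus Psmb6 was -0.44 ± 0.15 (SD, n = 5) for females and -0.44 ± 0.15 (SD, n = 5) for males at 8 weeks, 0.16 ± 0.11 (SD, n = 5) and 0.24 ± 0.16 (SD, n = 5) at 21 weeks, and 0.07 ± 0.56 (SD, n = 5) and 0.47 ± 0.20 (SD, n = 5) at 78 weeks. All 10 rats at 21 weeks lay above all 10 at 8 weeks. The mean over the sexes differed by 0.64 from 8 to 21 weeks (permutation test with 100000 draws within sex, two-sided, adjusted p = 0.00054 over 18 tests) and by 0.71 from 8 to 78 weeks (adjusted p = 0.00301 by the same permutation test). The difference from 21 to 78 weeks was 0.07 (permutation test, adjusted p = 0.915). On the only slide that held both ages, with 1 rat of each sex and age, Psmb9 minus Psmb6 was higher at 78 than at 8 weeks by 1.03.

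Psmb8 minus Psmb5 was -3.28 ± 0.09 (SD, n = 5) for females and -3.20 ± 0.23 (SD, n = 5) for males at 8 weeks, -2.84 ± 0.26 (SD, n = 5) and -2.87 ± 0.11 (SD, n = 5) at 21 weeks, and -2.92 ± 0.65 (SD, n = 5) and -2.41 ± 0.15 (SD, n = 4) at 78 weeks. It was higher by 0.39 at 21 weeks and by 0.58 at 78 weeks than at 8 weeks (permutation tests as above, adjusted p = 0.00301 and 0.0173). The second call was lost without the 2 discordant arrays (0.51, adjusted p = 0.059 by the permutation test), and without female replicate 4 at 78 weeks it was 0.72 (adjusted p = 0.00042), with no overlap between the ages. With the mean of all probes of each gene in place of the brightest, the difference from 8 to 21 weeks was 0.25 (permutation test, adjusted p = 0.0933).

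Psmb10 minus Psmb7 was 1.46 ± 0.18 (SD, n = 5) for females and 1.41 ± 0.07 (SD, n = 5) for males at 8 weeks, 1.69 ± 0.05 (SD, n = 5) and 1.69 ± 0.14 (SD, n = 5) at 21 weeks, and 1.50 ± 0.55 (SD, n = 5) and 1.88 ± 0.12 (SD, n = 5) at 78 weeks. The difference was 0.26 from 8 to 21 weeks (permutation test, adjusted p = 0.00301) and 0.25 from 8 to 78 weeks (adjusted p = 0.205 by the permutation test). Without female replicate 4 at 78 weeks the latter was 0.37 (permutation test, adjusted p = 0.00135). That rat had the lowest value of all 3 differences at 78 weeks, and the tests of 78 against 21 weeks for Psmb8 and Psmb9 also passed without it, at 0.33 and 0.19 (permutation tests, adjusted p = 0.00679 and 0.0251). It was singled out after its values were seen, and leaving it out can only raise the 78-week mean. Male replicate 4 had the highest Psmb9 minus Psmb6 at 78 weeks (0.81), and the single differences without that male are not given here. Between the sexes at 78 weeks, females minus males was -0.51 for Psmb8 minus Psmb5, -0.40 for Psmb9 minus Psmb6 and -0.37 for Psmb10 minus Psmb7, and none of the 9 sex differences passed (exact permutation tests, smallest p = 0.0476, adjusted p = 0.143).

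**Figure D2:**
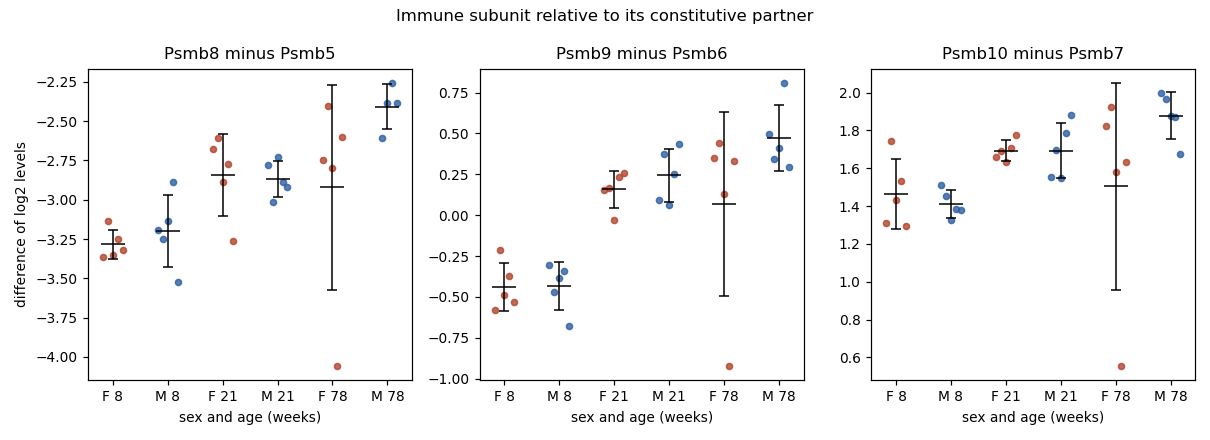
Difference between the log2 level of each immune subunit and that of its constitutive partner in each rat, by sex (F, M) and age in weeks, with the mean and SD of each group. Psmb9 minus Psmb6 is higher in all 10 rats of 21 weeks than in any of 8 weeks, and 1 female of 78 weeks lies far below the others in all 3 panels.

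Since the immune subunits are induced by interferon, their RefSeq promoters (build GRCr8) were searched for the interferon-stimulated response element in the form GAAA, any 2 bases and GAAA again, on both strands, from 250 bases before to 50 after the start. It was found in 3 of the 5 immune subunits and in 4 of the 37 other members with a promoter (Psma4, Psmb3, Psmd7 and Psmg4), against 3.92% of all 33469 promoters. The windows below end near the start site, 5′ to 3′ on the strand of the gene, with the matching letters in capitals. The Psmb8 match reads on the opposite strand and runs across the start, Psmb10 has a pair of matches, and Psmb9 is shown as a promoter without a match.
Psmb8, chr20:4657026-4657131 (-): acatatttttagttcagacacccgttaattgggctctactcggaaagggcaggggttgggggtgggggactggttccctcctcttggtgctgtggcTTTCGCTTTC
Psmb10, chr19:50743293-50743392 (-): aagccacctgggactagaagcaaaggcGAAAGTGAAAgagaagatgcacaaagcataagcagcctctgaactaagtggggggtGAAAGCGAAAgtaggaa
Psme2, chr15:33052752-33052851 (-): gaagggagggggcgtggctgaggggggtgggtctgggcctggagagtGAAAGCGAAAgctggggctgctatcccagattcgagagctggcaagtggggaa
Psmb9, chr20:4668900-4668999 (+): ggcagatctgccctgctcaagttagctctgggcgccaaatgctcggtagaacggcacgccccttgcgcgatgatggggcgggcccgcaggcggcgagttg

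The gamma-activated site in the form TTCNNNGAA was found in Psmb8 of the 5 and in 3 of the 37 others, against 8.87% of all promoters. The core of the antioxidant response element, the site of the factors that raise proteasome genes under oxidative stress, was found in none of the 5 immune subunits in either form searched. As TGACNNNGC it was in 8 of the 37 other members (Psma3, Psmb2, Psmb5, Psmb6, Psmd1, Psmd3, Psmd9 and Psme4), against 12.1% of all promoters, and as TGAGNNNGC in 10, against 17.2%. A match of letters is a description of these windows and not a measured binding site. Psma7, Psmb11, Psmd6, Psmd12 and Psmd14 were not matched to a promoter.

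Over all members, 42 of the 46 passed the test from 8 to 21 weeks and each of these was higher at 21 weeks, in a comparison in which 60.2% of all 16595 genes tested passed and 34.2% passed as higher. The median difference was 0.39 over the members and 0.08 over all genes. From 21 to 78 weeks, 44 of the 46 passed and each was lower at 78 weeks (median -0.46), where 59.6% of all genes passed, 34.8% as lower, with a median of -0.08. The 3 age comparisons share arrays, and the 21-week arrays enter both of these. The size of these differences changed with the scaling: after quantile normalization 25 members were higher and 3 lower at 21 than at 8 weeks (median 0.16), where 56.1% of all genes passed, 28.7% as higher and 27.4% as lower, and without the 3 dimmest arrays 33 were higher (median 0.32), where 46.6% of all genes passed, 25.7% as higher. After normexp background correction the median was -0.04, and 1 member passed, against 24.6% of all genes.

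By role, the constitutive beta ring had the largest median difference from 8 to 21 weeks (0.54) after the immune subunits (0.82). All 7 constitutive beta genes were higher than at 8 weeks, with differences of 0.26 (Psmb2) to 0.72 (Psmb5), and lower at 78 than at 21 weeks, with differences of -0.49 (Psmb2) to -0.86 (Psmb6). Psmb1, a structural beta subunit, ranged from 4.06 to 4.41 (median 4.18 over 10 rats) at 8 weeks, from 4.42 to 5.47 (median 4.74) at 21 weeks and from 3.27 to 4.42 (median 4.10) at 78 weeks. It differed by 0.58 ± 0.10 (SE) and then by -0.74 ± 0.10 (SE) (limma, adjusted p = 1.57e-05 and 3.85e-07). All 7 alpha ring genes, which form the gate of the core, were higher at 21 weeks, with a median of 0.37 and a range of 0.22 to 0.52, and all 7 were lower at 78 than at 21 weeks (median -0.42). Psma7, an alpha subunit, had medians of 6.12 over 8 rats at 8 weeks, 6.52 over 9 at 21 weeks and 5.84 over 10 at 78 weeks. The 78-week rats lay below all 21-week rats (-0.70 ± 0.07 (SE), limma, adjusted p = 5.34e-09).

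In the 19S cap, 5 of the 6 ATPase genes were higher at 21 weeks than at 8 weeks, with Psmc6 at 0.08 ± 0.06 (SE), and so were 9 of the 11 non-ATPase genes, with Psmd1 at 0.04 ± 0.10 (SE) and Psmd11 at 0.09 ± 0.06 (SE). The medians of the ATPases and non-ATPases were 0.38 and 0.33. Psmd7 had the smallest adjusted p of all members from 8 to 21 weeks (0.42 ± 0.05 (SE), limma, adjusted p = 9.75e-08), with no overlap between the ages. From 21 to 78 weeks, 5 of the 6 ATPases and 10 of the 11 non-ATPases were lower, all but Psmc6 and Psmd1. All 6 assembly factors were higher at 21 weeks and lower again at 78 weeks. Psmd5, a chaperone of the ATPase ring, ranged from 0.51 to 0.89 (median 0.62 over 10 rats) at 8 weeks, from 0.93 to 1.66 (median 1.33) at 21 weeks and from 0.36 to 1.11 (median 0.55) at 78 weeks. It differed by 0.66 ± 0.10 (SE) and -0.72 ± 0.10 (SE) (limma, adjusted p = 2.18e-06 and 4.97e-07). Of the other activators and the inhibitor, Psme3 (PA28-gamma, a nuclear activator) and Psmf1 (the inhibitor PI31) were higher at 21 weeks, by 0.39 and 0.18, and Psme4 (PA200) differed by -0.01 ± 0.12 (SE). After normexp correction the medians of the alpha ring, both parts of the cap and the other activators were below 0 from 8 to 21 weeks (-0.06, -0.05, -0.05 and -0.11), and those of the immune subunits (0.39), the constitutive beta ring (0.09) and the assembly factors (0.09) were above 0, with 1 gene passing.

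**Figure D3:**
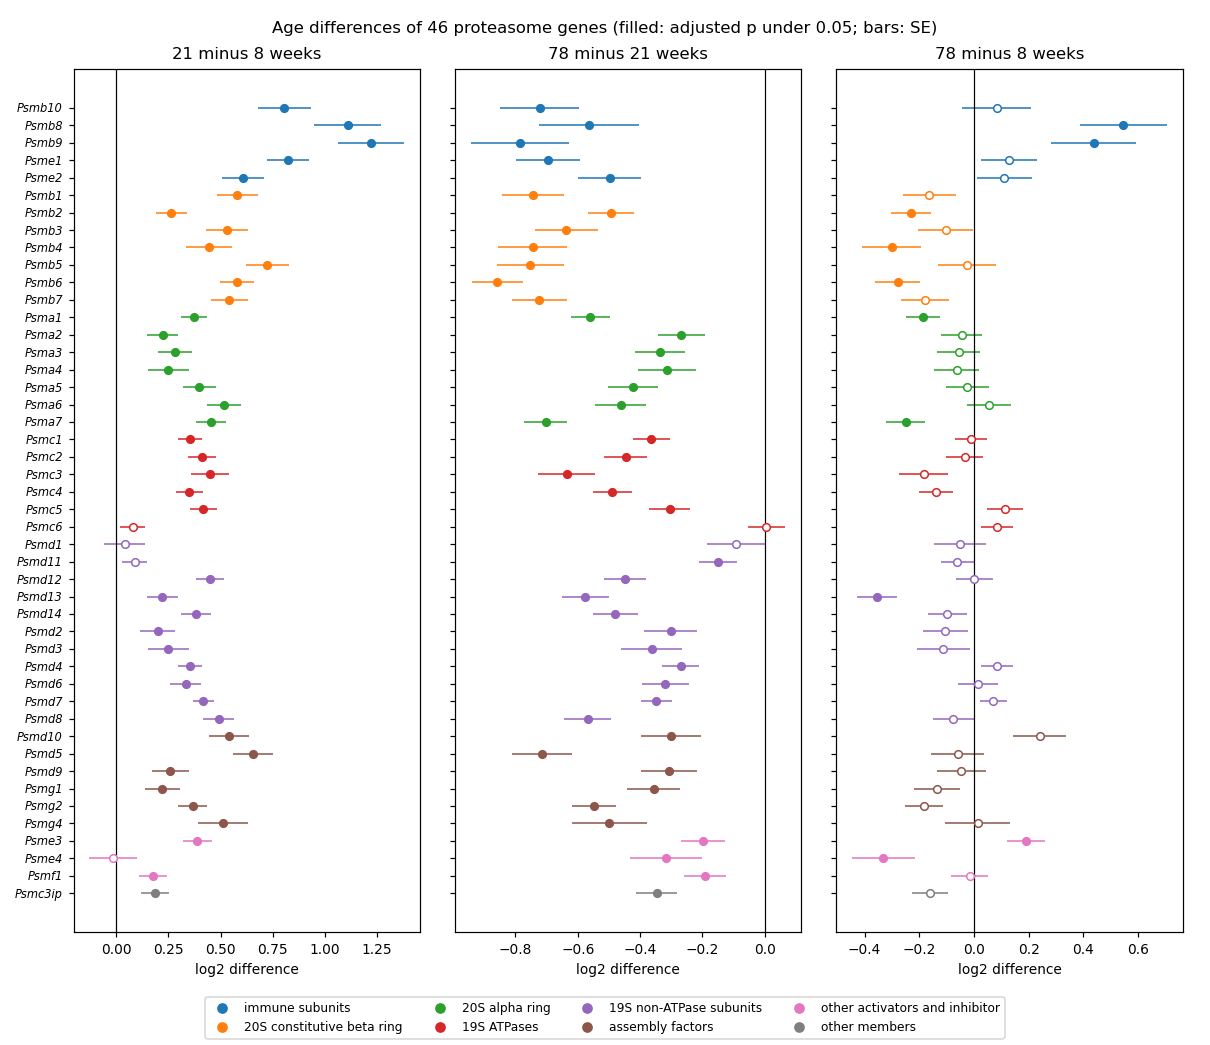
Difference in log2 level between ages for the 46 members, averaged over the sexes (limma, bars: SE, filled: adjusted p under 0.05), grouped by role. From 8 to 21 weeks 42 members are higher, from 21 to 78 weeks 44 are lower, and from 8 to 78 weeks Psmb8 and Psmb9 lie to the right while the 7 constitutive beta genes lie to the left.

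From 8 to 78 weeks the immune beta subunits Psmb8 and Psmb9 were higher while 3 of the 7 constitutive beta subunits were lower. Of the 46 members, 10 passed, in a comparison in which 20.5% of all genes did: 3 were higher at 78 weeks (9.38% of all genes) and 7 were lower (11.1% of all genes). The share of members that passed, 21.7%, was near that of all genes. Higher were Psmb8, Psmb9 and Psme3. Lower were the beta subunits Psmb2, Psmb4 and Psmb6, the alpha subunits Psma1 and Psma7, the cap subunit Psmd13 and the activator Psme4. By their chosen probes, all 7 constitutive beta genes had negative differences (median -0.18) and all 5 immune subunits positive ones (median 0.13), against a median of -0.05 over the members and -0.01 over all genes. Second probes of Psmb2 and Psmb7, both dim, had positive differences (0.33 and 0.08). The unmatched second row of Psmb6 had means at 78 weeks close to those at 8 weeks. After normexp correction Psmb10, Psme1 and Psme2 had negative differences (-0.30, -0.27 and -0.30), as did 43 of the 46 members, and without the 2 discordant arrays Psmb5 was at 0.01. Within the slide that held both ages, the medians were 0.29 over the immune subunits, with Psme1 at -0.11, and -0.24 over the 6 constitutive beta genes measured on its arrays.

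Psmd13, a scaffold subunit of the cap, had the smallest p and ranged from 1.34 to 1.73 (median 1.50 over 10 rats) at 8 weeks and from 0.95 to 1.50 (median 1.14) at 78 weeks. The difference was -0.35 ± 0.07 (SE) (limma, adjusted p = 0.000741), with an overlap at 78-week female replicate 4 (1.50). Psmb2 ranged from 5.31 to 5.53 (median 5.38) at 8 weeks and from 5.02 to 5.29 (median 5.15) at 78 weeks, without overlap, a difference of -0.23 ± 0.07 (SE) (limma, adjusted p = 0.0246). Psmb4, another structural beta subunit, ranged from 5.29 to 5.49 (median 5.42) and from 4.50 to 5.44 (median 5.14), and differed by -0.30 ± 0.11 (SE) (limma, adjusted p = 0.0479). Its lowest rat was male replicate 4 at 78 weeks (4.50), without which the difference was -0.24 (limma, adjusted p = 0.0913). Psma1 ranged from 4.50 to 4.76 (median 4.60) and from 4.22 to 4.65 (median 4.37), and differed by -0.19 ± 0.06 (SE) (limma, adjusted p = 0.0317), while Psma7 differed by -0.25 ± 0.07 (SE) (adjusted p = 0.0113). Psme4 ranged from 2.56 to 2.95 (median 2.62) and from 2.11 to 2.66 (median 2.28), and differed by -0.33 ± 0.11 (SE) (limma, adjusted p = 0.0387). Psme3 ranged from 4.05 to 4.26 (median 4.13) and from 4.17 to 4.57 (median 4.27), and differed by 0.19 ± 0.07 (SE) (limma, adjusted p = 0.0486). The 78-week rats of Psme3 overlapped the upper part of the 8-week range, and those of Psme4 and Psma1 the lower part. Psmb8, Psmd13, Psma7, Psmb6 and Psmb2 passed in all 30 fits that left out 1 rat each, whereas Psme3 was lost in 21, Psmb4 in 19, Psme4 in 9 and Psma1 in 6 of them (largest adjusted p of 0.110, 0.0913, 0.0746 and 0.0705). Without the 2 discordant arrays, Psma1 (-0.17), Psmb4 (-0.30), Psme3 (0.20) and Psme4 (-0.30) did not pass either (limma, adjusted p = 0.0776, 0.0688, 0.0650 and 0.0982), nor did Psmb9, which left 5 of the 10 calls where 17.0% of all genes passed.

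For 17 members the array holds more than 1 probe, and 20 further probes were well above background on at least 15 arrays. Their differences had the sign of the chosen probe in 19 of 20 from 8 to 21 weeks, in 16 from 21 to 78 weeks and in 12 from 8 to 78 weeks. The other probes of Psmb8, Psmb9 and Psmb10 were higher at 78 than at 8 weeks as well, by 0.42, 0.68 and 0.60. They are dim, with mean levels of -0.74, -2.32 and -0.89, and the chosen Psmb10 probe differed by 0.08. Such a rise was not particular to immune subunits. Further dim probes of Psma6 (0.52 and 0.46), Psmd12 (0.36), Psme3 (0.39) and Psmb7 (0.08) were also higher. Those of Psmd6 (-0.10) and Psme4 (-0.58) were lower. The dim second probes of Psma7 and Psmb2 differed by 0.36 and 0.33, opposite to the chosen probes, and with the mean over all probes these genes had differences of 0.05 and 0.05. The probe read as Psmd14 carries another gene name on the array and rests on the name the authors gave it. Psmd2 was read by a dimmer probe because its brightest was marked as an outlier on 19 arrays.

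Between females and males of the same age, no member passed the test at any age. At 8 weeks 0.404% of all genes passed, at 21 weeks 0.241% and at 78 weeks 0.0%. The share at 78 weeks includes the 2 discordant arrays, and without them 14 genes (0.0844% of all genes) passed. At an unadjusted p under 0.05 there were 4 members at 8 weeks, 6 at 21 weeks and 3 at 78 weeks, which are 8.70, 13.0 and 6.52% of the 46, against 8.06, 24.2 and 6.92% of all genes. The median difference, females minus males, was 0.04, -0.22 and 0.08 over the members, with 37, 6 and 35 of the 46 above 0, and 0.02, -0.02 and 0.03 over all genes. At 21 weeks the median over the members was -0.02 without the 3 dimmest arrays and -0.11 after quantile normalization, and after normexp correction it turned to 0.38. After normexp correction the median at 78 weeks was -0.32.

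The 3 members with the smallest p at each age, none of which passed the adjusted threshold, had these levels. Psmg2, an assembly chaperone of the alpha ring, had at 8 weeks levels of 1.08, 1.32, 1.02, 1.28 and 1.02 in females and 0.93, 0.91, 1.02, 1.03 and 0.95 in males, a difference of 0.17 ± 0.07 (SE) (limma, adjusted p = 0.55). Psmd1, the largest cap subunit, then measured 7.35, 7.80, 7.47, 7.54 and 7.47 in females and 7.29, 7.28, 7.41 and 7.37 in males, a difference of 0.19 ± 0.08 (SE) (limma, adjusted p = 0.563). Psmc6, an ATPase, was at 4.69, 4.83, 4.84, 4.67 and 4.81 in females and 4.70, 4.67, 4.59, 4.60 and 4.70 in males, a difference of 0.12 ± 0.05 (SE) (limma, adjusted p = 0.576). The females were higher on average in all 3 genes and the groups overlapped. Psmb1 at 21 weeks measured 4.42, 4.66, 4.62, 4.51 and 4.77 in females and 4.75, 5.47, 4.78, 4.72 and 5.06 in males, a difference of -0.36 ± 0.15 (SE) (limma, adjusted p = 0.161). Psmg2 at 21 weeks measured 1.27, 1.36, 1.12, 1.34 and 1.22 in females and 1.37, 1.82, 1.46, 1.34 and 1.85 in males, a difference of -0.30 ± 0.12 (SE) (limma, adjusted p = 0.165). Psmd14, the deubiquitinase of the cap, measured at 21 weeks 2.30, 2.30, 2.26, 2.24 and 2.41 in females and 2.54, 2.70, 2.48, 2.28 and 2.91 in males, a difference of -0.28 ± 0.12 (SE) (limma, adjusted p = 0.17). The males were higher on average in these genes, and the 2 highest in each were replicates 2 and 5, both among the 3 dimmest arrays. Psma7 at 78 weeks gave 6.03, 5.78, 5.94, 5.99 and 5.95 in females and 5.82, 5.80, 5.86, 5.74 and 5.72 in males, a difference of 0.15 ± 0.06 (SE) (limma, adjusted p = 0.698). Psmb2 at 78 weeks gave 5.29, 5.13, 5.28, 5.23 and 5.20 in females and 5.06, 5.11, 5.16, 5.09 and 5.02 in males, a difference of 0.14 ± 0.06 (SE) (limma, adjusted p = 0.698). Psmd1 at 78 weeks gave 7.61, 7.37, 7.53, 7.68 and 7.51 in females and 7.38, 7.36, 7.34, 6.57 and 7.41 in males, a difference of 0.33 ± 0.15 (SE) (limma, adjusted p = 0.698). In each of these, 4 of the 5 females were above every male, and the other was the discordant array. Without the 2 discordant arrays, the differences were 0.21, 0.18 and 0.40 (limma, adjusted p = 0.330, 0.393 and 0.422 for Psma7, Psmb2 and Psmd1), and after normexp correction Psma7 and Psmb2 were at -0.05 and -0.34. Without male replicate 4, the lowest rat in Psmd1, the Psmd1 difference at 78 weeks was 0.17, without female replicate 2 that at 8 weeks was 0.12, and without male replicate 2 the Psmb1 difference at 21 weeks was -0.23.

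No immune subunit had a sex difference that passed the test at any age. At 78 weeks females minus males was -0.48 for Psmb8, -0.46 for Psmb9 and -0.21 for Psmb10, with 2 SE intervals of -1.06 to 0.10, -0.96 to 0.05 and -0.57 to 0.15. The exact permutation test, two-sided, gave p = 0.198, 0.175 and 0.468, and the groups overlapped in each gene. Without female replicate 4 the differences were -0.18, -0.20 and -0.01, and without the 2 discordant arrays -0.60, -0.57 and -0.23. Psme1 and Psme2 had differences of 0.01 and -0.16 at this age. At 8 weeks the differences of the 5 genes were -0.05 (Psmb8), 0.07 (Psmb9), 0.02 (Psmb10), -0.01 (Psme1) and -0.01 (Psme2), and at 21 weeks -0.32, -0.40, -0.36, -0.20 and -0.34. The constitutive partners Psmb5, Psmb6 and Psmb7 differed by -0.34, -0.31 and -0.36 at 21 weeks.

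Averaged over the 3 ages, Psmd1 was the only member that passed, in a comparison in which 6.76% of all genes passed and 4.48% passed as higher in females. It also measured 7.62, 7.55, 7.71 and 7.61 in females and 7.38, 6.99, 7.51, 7.35 and 7.33 in males at 21 weeks, so females were higher on average at each age. The averaged difference was 0.28 ± 0.07 (SE) (limma, adjusted p = 0.0244). It passed in all 30 fits that left out 1 rat each, and did not pass without the 3 dimmest arrays (0.23, adjusted p = 0.106), after quantile normalization (0.28, adjusted p = 0.0784) or with the mean over all probes (0.22, adjusted p = 0.0806). A second Psmd1 probe had differences of 0.03, 0.09 and 0.14 at 8, 21 and 78 weeks. No member passed the test of whether the sex difference differs between ages, where 0.0121% of all genes passed (2 genes, limma moderated F test) and 11 members had an unadjusted p under 0.05, against 18.8% of all genes. The smallest were Psmg2, Psmb1 and Psmb4, with adjusted p of 0.136, 0.14 and 0.162 (limma). Without male replicate 1 at 21 weeks, 7 members passed this test, in a fit in which 1832 of all 16595 genes did. Psmb4 measured 5.31, 5.05, 5.31, 5.44 and 5.13 in females and 5.15, 5.14, 5.20, 4.50 and 4.90 in males at 78 weeks, and 5.60, 5.84, 5.37, 5.67 and 5.79 and 5.74, 6.49, 5.70, 5.70 and 6.64 at 21 weeks. The females were thus lower on average at 21 weeks and higher at 78 weeks.

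**Figure D4:**
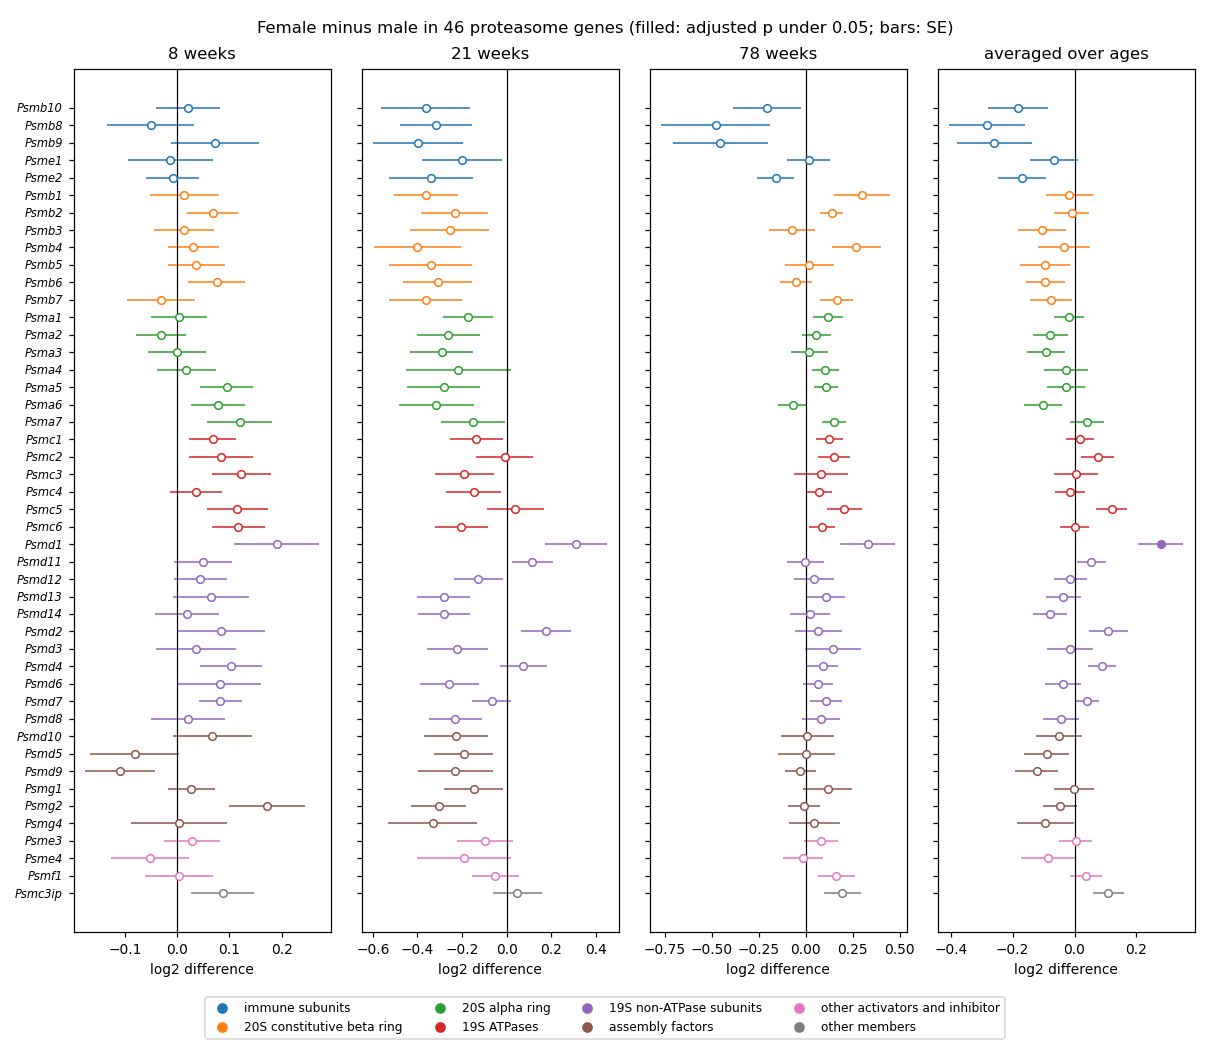
Difference in log2 level between females and males for the 46 members at 8, 21 and 78 weeks and averaged over ages (limma, bars: SE, filled: adjusted p under 0.05), each panel with its own scale. The only filled point is Psmd1 averaged over ages (0.28), and 40 of the 46 members lie below 0 at 21 weeks.

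Within the 6 groups, the levels of the immune subunits varied together from rat to rat. After the mean of each sex and age group was removed, Psmb8 and Psmb9 had a Pearson r of 0.96 and a Spearman rho of 0.91 over 30 rats (permutation tests with 100000 draws within groups, adjusted p = 3.5e-05 for both, over 7 pairs). Psmb8 and Psmb10 had 0.86 and 0.81, and Psmb9 and Psmb10 had 0.91 and 0.89 (permutation tests, largest adjusted p = 0.000163). Without the 2 rats farthest from the median, r of these 3 pairs was 0.93, 0.84 and 0.82, and over the 20 rats of 8 and 78 weeks it was 0.98, 0.92 and 0.87. Psme1 and Psme2 had an r of 0.73 and a rho of 0.47 (permutation tests, adjusted p = 0.00298 and 0.0305), and r was 0.48 without the 2 farthest rats and 0.17 over 8 and 78 weeks.

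Immune subunits and their constitutive partners had r of 0.53 for Psmb8 and Psmb5 (29 rats), 0.69 for Psmb9 and Psmb6 and 0.52 for Psmb10 and Psmb7. Whether these r differ from those among the immune subunits was not tested. Without the 2 farthest rats r was 0.60, 0.78 and 0.68, and without the 3 dimmest arrays the pairs Psmb8 and Psmb5 (0.41) and Psmb10 and Psmb7 (0.10) no longer passed. Over 8 and 78 weeks Psmb10 and Psmb7 had an r of -0.25. Values of a rat share the scale of its array, which enters every r.

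**Figure D5:**
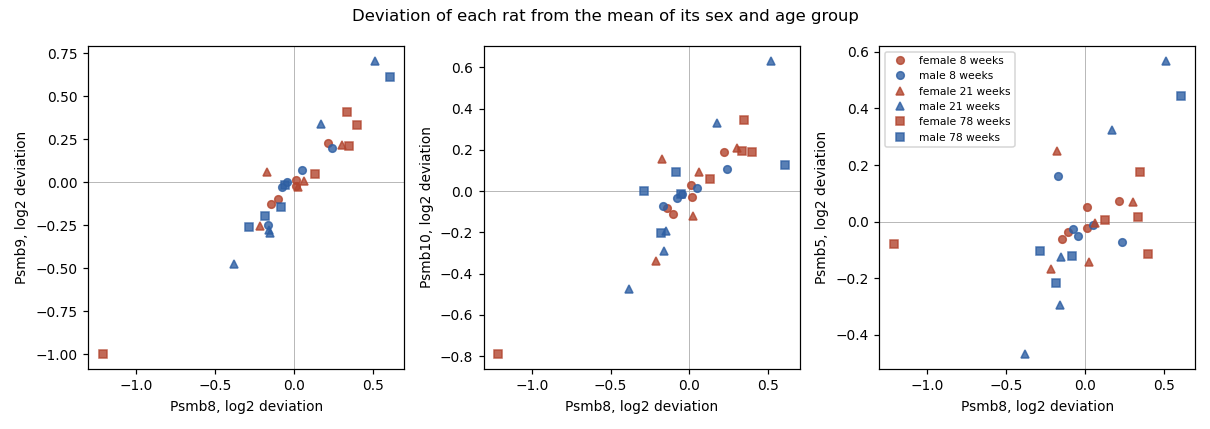
Deviation of each rat from the mean of its sex and age group, Psmb8 against Psmb9, Psmb10 and Psmb5 (log2). The points of Psmb9 lie near a line (r = 0.96) and those of Psmb5 spread (r = 0.53), with female replicate 4 of 78 weeks at the far left of each panel.

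Genes of class I presentation and of the interferon response work with the immunoproteasome or are induced with it. Of 24 such genes tested, 13 were higher and 2 lower at 21 than at 8 weeks (62.5%, against 60.2% of all genes, median 0.28), led by RT1-A2, a class I heavy chain (0.89), and Ifng, the interferon-gamma gene (0.81), with the chaperones Pdia3 (-0.25) and Canx (-0.20) lower. Between 8 and 78 weeks 3 were higher and 1 lower (16.7%, against 20.5% of all genes, median 0.12). Tap2, a peptide transporter (0.42), and RT1-A2 (0.34) were among the higher ones, and Irf9, an interferon-regulated transcription factor (-0.28), was lower. From 21 to 78 weeks 3 were higher, with Tap2 at 0.48 and Pdia3 at 0.27 the largest, and 11 lower, with the receptor gene Ifngr2 at -0.57 and RT1-A2 at -0.55 (58.3%, against 59.6% of all genes). None passed between the sexes at a single age, and Isg15, an interferon-induced ubiquitin-like gene, was lower in females averaged over ages (-0.42), 1 of 24 where 6.76% of all genes passed.

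Of 28 further genes of the ubiquitin and proteasome pathway, 15 were higher and 2 lower at 21 than at 8 weeks (60.7%, against 60.2% of all genes, median 0.21). Pomp, which assembles the core (0.57), was among the higher ones, and the ligase genes Fbxo32 (atrogin-1, -0.63) and Ube3a (-0.48) were lower. From 21 to 78 weeks Fbxo32 (0.89) and Ube3a (0.44) were higher and 12 genes lower, among them Ufd1l, a cofactor of the unfolding ATPase Vcp (-0.54), in all 50.0% against 59.6% of all genes. At 78 against 8 weeks none was higher and 3 were lower, among them Ufd1l (-0.40) and the muscle ligase Trim63 (MuRF1, -0.30), which is 10.7% against 20.5% of all genes. Between the sexes, 1 of the 28 passed averaged over ages (Ube3a, 0.20), against 6.76% of all genes.

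Markers of leukocytes, cells that carry much of the immunoproteasome, were highest in sum at 21 weeks, as were the immune subunits. The sums of the cardiomyocyte markers and of the class I and interferon genes were also highest at that age, so this was not particular to leukocytes. The summed linear level of 25 leukocyte markers, in units of the 75th percentile, at 8 weeks was 197 to 225 for females and 184 to 232 for males. It was 228 to 306 and 275 to 489 at 21 weeks, and 163 to 233 and 219 to 322 at 78 weeks. The highest sums of 21 weeks, 489 and 427, were those of male replicates 5 and 2, both among the 3 dimmest arrays. Female replicate 4, the lowest in Psmb8, Psmb9 and Psmb10 at 78 weeks, also had the lowest sum of that age (163), and male replicate 4, the highest in Psmb8 and Psmb9, the highest (322). The array of male replicate 4 was the dimmest of 78 weeks (75th percentile of 78.4). It also had the highest median over 42 members (4.40), cardiomyocyte sum (6008) and class I and interferon sum (630) of that age. Of the 19 leukocyte markers tested, 11 were higher at 21 than at 8 weeks and 3 at 78 than at 8 weeks (Cd68, C1qa and Cd163, macrophage genes), with medians of 0.40 and 0.14 (57.9 and 15.8% of them, against 60.2 and 20.5% of all genes), and the B cell marker Ms4a1 was above background on none of the arrays. At 78 weeks 18 of the 19 had negative differences, females minus males, and none passed. The part of these cells in the levels of the immune subunits was not tested.

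All 11 cardiomyocyte markers (such as Myh6 and Tnnt2) were well above background. At 21 against 8 weeks 9 were higher and 1 lower (90.9%, against 60.2% of all genes, median 0.52). At 78 against 8 weeks 1 was higher and 1 lower (18.2%, against 20.5% of all genes, median 0.19). Their summed level had medians of 5421 in females and 7433 in males at 21 weeks, against 4528 and 4202 at 8 weeks and 4910 and 4659 at 78 weeks. The 3 highest sums were those of the 3 dimmest arrays, male replicates 2, 4 and 5 at 21 weeks (10913, 7433 and 7697). Male replicates 1 and 3 of that age were at 5179 and 5271. A link between these sums and the brightness of the arrays was not tested. From 8 to 78 weeks the medians of the other lists were -0.36 over 6 endothelial markers (3 lower, 50.0%), -0.20 over 7 fibroblast markers (2 lower, 28.6%), 0.38 over 3 smooth muscle markers (2 higher, 66.7%), 0.17 over 3 adipocyte markers (none passed) and 0.33 over 3 red cell markers (1 higher, 33.3%). Of all genes, 20.5% passed in this comparison. The part of these cell types in the levels of the members was not tested.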

How the data were processed

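RNA from 30 rat hearts was labeled with Cy3 and hybridized to Agilent whole rat genome arrays of 45018 spots, 4 to a slide. The authors extracted each intensity with Agilent Feature Extraction, which subtracted the background, and deposited it per array. The authors also deposited, for each age, the signal in units of the 75th percentile of its array, on a linear scale and with updated gene names. The flags of the scanner software, deposited with the intensities, mark spots that are outliers or well above background.

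From the processed intensity, log2 values were taken relative to the 75th percentile over all non-control probes of the array. Spots marked as outliers were left out and the brightest probe stood for each gene. A gene was tested if well above background on at least 15 of 30 arrays with at least 2 unmarked values per group, which left 16595 genes. The rebuilt values matched 98.5% of rows of the authors' tables to within 0.002 on the log2 scale, and names came from that match. The 21-week male columns of the tables name only the group.

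Sexes were compared at each age over its 10 arrays, and ages, the sex difference averaged over ages and its difference between ages over all 30 arrays with 6 groups and the slide as a random block (correlation 0.0383), in limma 3.58.1 under R 4.3.3 with Benjamini-Hochberg adjustment over all genes and a threshold of 0.05. Permutation tests used scipy 1.17.1 and numpy 2.4.6 under Python 3.11.15. On data simulated from these samples, 46% of 100 genes changed by 0.4 and 87% of 100 changed by 0.8 were recovered from 8 to 78 weeks among 16595 genes, and 6% and 63% between the sexes at 8 weeks. The number of arrays limits the precision.

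Replicate numbers of the labels went with a shared slide at every age, and the deviations of each pair correlated at 78 weeks (r of 0.154 to 0.342) but not in every pair at 8 or 21 weeks (lowest r of -0.18 and -0.11). Values per rat are given for the 5 immune subunits, their 3 partners and, in each comparison, the members that passed (the 10 with the largest difference where there were more, several of them as a range) or the 3 with the smallest p. The members and lists were chosen with earlier results of these data known. Alternatives covered background correction, scaling, the filter, the probe rule, blocks, the methods' ANOVA, the authors' tables and leaving out arrays. Those on outlier spots, the dimmest arrays, the ages of 8 and 78 weeks alone, and on the immune differences and pairs were added after the data were seen. Promoters came from RefSeq (GRCr8), where 42 of the 47 names matched. Some genes of these lists enter the counts and are not reported here by name.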

Additional observations from a re-analysis of the deposited data

Results flagged for a closer look

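In 10 of 48 groups of 5 rats (4 in Psmb5 at 78-week males), over the 8 subunits with values per rat, the highest or lowest rat stood apart from the others by Dixon's test, which by chance marks about 1 in 20 groups. Of these, 8 were at 78 weeks and 7 were female or male replicate 4, which shared a slide. The 48 groups come from the same rats and from genes of which several vary together. They are therefore not independent, and their count cannot be set against 1 in 20 as a test. Female replicate 4 was low in Psmb8 (1.50, the nearest rat at 2.84), Psmb9 (3.53, nearest 4.58) and Psmb10 (4.37, nearest 5.22). Male replicate 4 was high in Psmb8 (3.80, nearest 3.14), Psmb9 (5.60, nearest 4.97), Psme2 (4.84, nearest 4.59) and Psmb6 (4.79, nearest 4.49). Its array was the dimmest of 78 weeks (75th percentile of 78.4) and had the highest median over 42 members of that age (4.40). The other 3 rats were male replicate 5 at 8 weeks in Psmb5 (5.79, nearest 5.62), female replicate 2 at 21 weeks in Psmb6 (5.39, nearest 5.16) and female replicate 5 at 78 weeks in Psmb6 (4.60, nearest 4.45).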

How the results depend on the processing

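Counts of members that passed changed most with the normexp background correction, whose offset of 50 is of the size of the 75th percentile of the dim arrays. It left 1 member from 8 to 21 weeks, 2 from 21 to 78 weeks and 1 from 8 to 78 weeks, against 42, 44 and 10. From 8 to 78 weeks 5 passed with no filter on dim probes (8.95% of all genes), 6 with the mean over all probes (17.2%) and 5 without the 2 discordant arrays (17.0%). From 8 to 21 weeks 28 passed after quantile normalization, 25 of them higher, where 56.1% of all genes passed. Averaged over ages, 0 members passed between the sexes after normexp correction, quantile normalization, with no filter, with the mean over all probes or without the dimmest arrays. Of all genes, 0.193, 5.42, 2.04 and 4.45% passed in the first 4 of these. At 21 weeks 9 members, all lower in females, passed when all 30 arrays shared the spread, where 3405 genes passed in place of 40. Of the 7 pairs, 4 passed without the dimmest arrays and 3 over 8 and 78 weeks alone. The cause was not tested.

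Leaving out 1 rat gave 38 to 42 members from 8 to 21 weeks, 43 to 44 from 21 to 78 weeks, 5 to 13 from 8 to 78 weeks (5 without female replicate 2 at 78 weeks), 0 in each sex comparison at 1 age, 1 to 2 averaged over ages and 0 to 7 between ages. It gave 5 to 8 of the 18 immune differences and 6 to 7 pairs. Of all genes, 56.7 to 63.2%, 56.5 to 62.1% and 17.2 to 24.7% passed in these fits for the age comparisons, in the order above. Without male replicate 1 at 21 weeks, 9.66% of all genes passed between the sexes at 21 weeks, in place of 0.241%. With the replicate number as a block, 9 instead of 10 members passed from 8 to 78 weeks, since Psmb4 was lost (adjusted p = 0.0600, limma), and no other member count changed. Of all genes, 20.4% passed from 8 to 78 weeks with this block. Between the sexes at 21 weeks 11.2% of all genes passed with it, in place of 0.241%.

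Signs turned after normexp correction for Psmb1 (0.44), Psmg2 (0.025) and Psmd14 (0.22) between the sexes at 21 weeks, for Psma7 (-0.049) and Psmb2 (-0.34) at 78 weeks, for Psme3 from 8 to 78 weeks (-0.19) and for Psmb1 (-0.017) and Psmb4 (-0.042) in a coefficient of the test between ages, the sex difference at 78 weeks minus that at 8 weeks. With the mean over all probes they turned for Psmd1 between the sexes at 8 weeks (-0.031) and for Psma7 (0.046) and Psmb2 (0.047) from 8 to 78 weeks.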

Other observations

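A second row of Psmb6 in the authors' tables could not be matched to a probe on the arrays. Its difference between females and males was 0.06 at 8 weeks, -0.37 at 21 weeks and 0.10 at 78 weeks (exact permutation tests, two-sided, p = 0.127, 0.143 and 0.0556, with 5 rats a group). The mean of this row was 0.44 in females and 0.37 in males at 8 weeks, and 0.78 and 1.15 at 21 weeks. At 78 weeks it was 0.45 and 0.35. The row was thus also higher at 21 weeks, but neither sex had a fall from 8 to 78 weeks like that of the matched probe (-0.28). Ages were not tested in this row.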
